A study of Mus musculus with 5 samples.

Results

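The 8 genes described here encode the main cannabinoid receptor of the brain and the enzymes that make and remove its ligands: Cnr1, Dagla, Daglb, Napepld, Mgll, Abhd6, Abhd12 and Faah. They were selected by gene symbol from the 55385 genes counted in the series, each symbol matched 1 gene, and all 8 passed the expression filter that left 19768 genes for testing. The series holds 5 RNA sequencing libraries of hippocampus from male C57/bl6 mice aged 3 months. Seizures were triggered by kainic acid, a glutamate receptor agonist and convulsant, given intraperitoneally at 20 mg/kg, and mice were killed at 1, 4 or 8 h counted from the onset of seizures. There was 1 library from the untreated control, 1 at 1 h, 2 at 4 h (replicate 1 and replicate 2) and 1 at 8 h. The control is labelled untreated, so injection and handling cannot be told apart from kainic acid in any comparison with it. The labels do not state whether a library came from a single mouse, and the p values below measure only the spread between the 2 libraries at 4 h. Depth on genes was 19100374 reads for the control, 17744508 at 1 h, 18250114 and 19109204 in replicates 1 and 2 of the 4 h group, and 16612225 at 8 h.

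Endocannabinoids are lipid messengers that carry signals backwards across the synapse. A strongly depolarized or glutamate-stimulated neuron makes 2-arachidonoylglycerol (2-AG) from membrane lipids by diacylglycerol lipase, and the lipid reaches the CB1 receptor on the presynaptic terminal, where it lowers transmitter release. Monoacylglycerol lipase and the ABHD hydrolases break 2-AG down, while anandamide, the other main ligand, can be made by NAPE-PLD and is hydrolysed by fatty acid amide hydrolase. In the hippocampus CB1 is dense on terminals of cholecystokinin-positive interneurons and is also present on glutamatergic terminals, and the pathway is known as a brake on excess excitation.

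The libraries differed in ways that bear on every comparison at 4 h. Transcripts of the choroid plexus, the secretory tissue of the ventricles that borders the hippocampus, were nearly missing from replicate 1 at 4 h. Ttr, its most abundant marker, had 3747 normalized CPM (CPM, read counts scaled to a common library total, here with TMM factors) in the control, 1573 at 1 h, 16.3 in replicate 1 and 3971 in replicate 2 at 4 h, and 2884 at 8 h. The summed level of the 4 choroid plexus markers Ttr, Kl, Otx2 and Kcnj13 was 3912, 1655, 26.8, 4157 and 3019 normalized CPM in the same order, and none of them was at 0 in a library. The 2 replicates also differed in immediate early genes, which neurons switch on within minutes of activity. Npas4 had 3.92 normalized CPM in the control, 694 at 1 h, 130 in replicate 1 and 4.92 in replicate 2 at 4 h, and 5.13 at 8 h. Results at 4 h are therefore given for each replicate. The part of these differences in the values of the 8 genes was not tested.

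**Figure D1:**
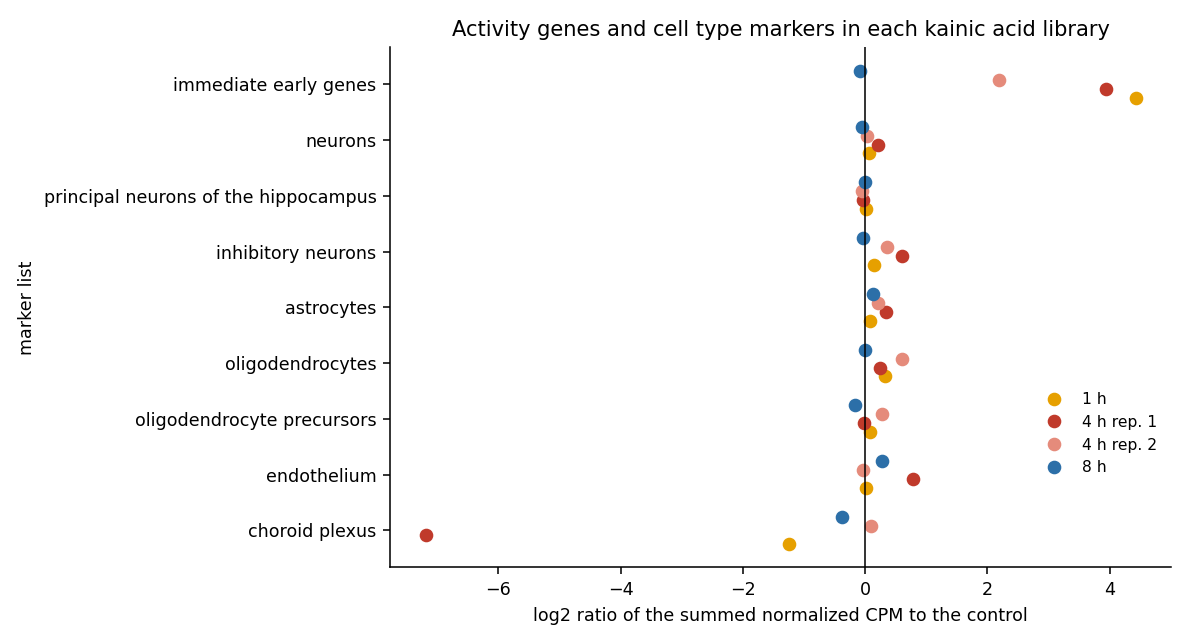
Each point is the log2 ratio of the summed normalized CPM of a marker list in 1 kainic acid library to the same sum in the control, for immediate early genes and for 8 lists of cell type markers, microglia not among them. Replicate 1 at 4 h lies far below the control for choroid plexus (26.8 against 3912 summed normalized CPM), and immediate early genes are highest at 1 h (5466 against 255).

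The comparisons with the control ask which of the 8 genes differed in transcript level after seizures. Faah and Napepld, the hydrolase and a synthetic enzyme of anandamide, were at least 1.5-fold below the control in both libraries at 4 h. The other 6 genes stayed within 1.5-fold of the control at that time in both libraries, and at 1 h and 8 h all 8 did. With edgeR's quasi-likelihood test and Benjamini-Hochberg adjustment over the 19768 genes, 0 of the 8 genes had an adjusted p under 0.05 at 1 h, 4 h or 8 h. Over all genes the share was 0% at 1 h, 0.00506% at 4 h (1 gene, ETV3L, named after its value was seen) and 0% at 8 h. DESeq2 and limma-voom also called 0 of the 8 genes at each time point, beside 0.283%, 1.2% and 0.167% of all genes at 1, 4 and 8 h for DESeq2 and 0% for limma-voom. At an unadjusted p under 0.05 there were 0 members at 1 h (2.42% of all genes), 2 at 4 h (Faah and Napepld, against 11.6% of all genes) and 1 at 8 h (Abhd12, against 4.51% of all genes). In bulk tissue, fewer cells of a type and less RNA per cell cannot be told apart, which holds for every difference below.

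Counted by size alone, 2 of 8 members were at least 1.5-fold lower in both libraries at 4 h, against 6.28% of all tested genes, and 0 were at least 1.5-fold higher, against 10.1%. At 1 h 0 members were at least 1.5-fold higher (10.9% of all genes) and 0 at least 1.5-fold lower (9.2%). At 8 h the member counts were again 0 in both directions, beside 14.1% of all genes higher and 8.94% lower. The median log2 ratio of the 8 genes to the control was -0.06 at 1 h, -0.31 in replicate 1 and -0.11 in replicate 2 at 4 h, and -0.08 at 8 h, while that of all tested genes was -0.01, -0.01, 0.00 and 0.01. The 4 kainic acid libraries share their single control, so an error in that library would move all of these ratios together.

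**Figure D2:**
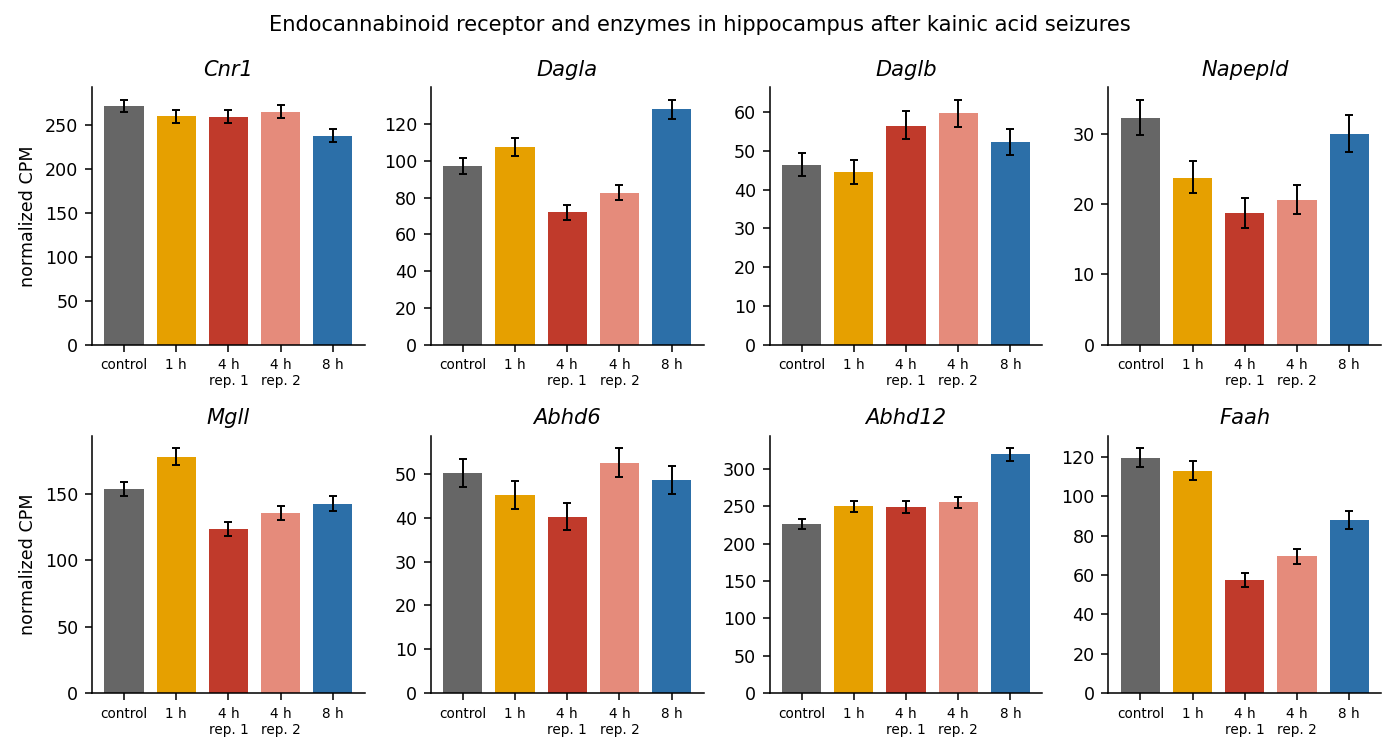
Bars show the normalized CPM of each gene in the 5 libraries, with exact Poisson 95% intervals that cover counting error only; each panel has its own axis from 0. Faah and Napepld are lowest in the 2 libraries at 4 h, Dagla and Abhd12 are highest at 8 h, and Cnr1 lies between 238 and 272 in the libraries shown.

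Cnr1 encodes the CB1 receptor, the G protein-coupled receptor on which both ligands act. The gene (ENSMUSG00000044288.6, chr4:33924593-33948831 of GRCm38, plus strand) had 272 normalized CPM in the control, 260 at 1 h, 260 and 265 in replicates 1 and 2 of the 4 h group, and 238 at 8 h. It was the steadiest member, with the highest library only 1.14 times the lowest, and 3.62% of tested genes varied as little or less over the 5 libraries. The tested genes were not matched to Cnr1 for read count, and genes with few reads vary more by counting error. The control was the highest library and 8 h the lowest. The ratio of the 8 h library to the control was 0.875 (95% counting interval 0.840 to 0.911), and the log2 fold change of -0.19 (SE 0.18) had an adjusted p of 1.00 (edgeR quasi-likelihood, Benjamini-Hochberg). At 4 h it was -0.05 (SE 0.15), with an adjusted p of 0.919 by the same edgeR test.

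CB1 is expressed at its highest density by cholecystokinin-positive interneurons. Cck had 152 normalized CPM in the control, 160 at 1 h, 168 and 155 in the 4 h pair and 133 at 8 h, so its lowest library was the same as that of Cnr1. This was not particular to Cck among markers of inhibitory neurons. Sst, Slc32a1 and Pvalb also had their lowest group mean at 8 h, while Gad1, Gad2 and Vip had theirs in the control. The summed level of 7 markers of inhibitory neurons, with Gad1 the most abundant, was 663 in the control, 729 at 1 h, 1012 and 850 in the 4 h pair and 649 at 8 h. Gad1 alone had 256, 317, 515, 379 and 274 in the same order, and the median log2 ratio of the 7 to the control was 0.07 at 1 h, 0.34 and 0.03 in the 4 h pair and -0.09 at 8 h, so the sum does not stand for each marker. None of the 7 was at 0 in a library, and the part of interneuron number in the Cnr1 values was not tested.

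Dagla encodes diacylglycerol lipase alpha, the enzyme that makes most 2-AG at synapses of the adult brain. The gene (ENSMUSG00000035735.10, chr19:10245265-10304877, minus strand) had 97.2 normalized CPM in the control, 107 at 1 h, 72.0 and 82.7 in replicates 1 and 2 of the 4 h group, and 128 at 8 h. Both libraries at 4 h lay below the control and the library at 8 h above it, and counting intervals of the 5 libraries put 8 h apart from all others. Relative to the control the ratio was 0.740 (95% counting interval 0.689 to 0.796) and 0.850 (0.795 to 0.909) in the 4 h pair and, at 8 h, 1.32 (1.24 to 1.40). The log2 fold change of -0.33 (SE 0.18) at 4 h had an adjusted p of 0.526, and that of 0.40 (SE 0.21) at 8 h one of 1.00 (edgeR quasi-likelihood, Benjamini-Hochberg).

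The 8 h library was next compared with the libraries at 4 h, a contrast that does not use the control. Dagla was higher at 8 h by a log2 fold change of 0.73 (SE 0.17), with an unadjusted p of 0.00737 and an adjusted p of 0.466 (edgeR quasi-likelihood, Benjamini-Hochberg). Without the filter on low counts the adjusted p of Dagla in this contrast was 0.0151 (edgeR quasi-likelihood, Benjamini-Hochberg). That setting made 2120 calls summed over the 3 contrasts between time points, against 1 in the main analysis. A gene can count more than once in this sum, and the share for 8 h against 4 h alone is not given here. Across the contrasts between time points, edgeR's quasi-likelihood test called 0 of the 8 members, beside 0.00506% of all genes for 4 h against 1 h, 0% for 8 h against 4 h and 0% for 8 h against 1 h, and DESeq2 (0.551%, 0.653% and 0.349% of all genes) and limma-voom (0%) also called 0 members. At an unadjusted p under 0.05 there were 3 members for 4 h against 1 h (Dagla, Mgll and Faah, all lower at 4 h; 7.94% of all genes), 2 for 8 h against 4 h (Dagla and Napepld, both higher at 8 h; 8.73%) and 0 for 8 h against 1 h (5.89%).

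Daglb encodes diacylglycerol lipase beta, the related enzyme that supplies 2-AG mainly in microglia and other non-neuronal cells. The gene (ENSMUSG00000039206.13, chr5:143464584-143505942, plus strand) had 46.4 normalized CPM in the control, 44.5 at 1 h, 56.5 and 59.7 in the 4 h pair and 52.3 at 8 h. Both libraries at 4 h were above the others, in the opposite direction to Dagla. Relative to the control the ratio was 1.22 (95% counting interval 1.11 to 1.33) in replicate 1 and 1.29 (1.18 to 1.40) in replicate 2, and the log2 fold change of 0.32 (SE 0.18) had an adjusted p of 0.546 (edgeR quasi-likelihood, Benjamini-Hochberg).

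Exons of Rac1 on the opposite strand cover 24.1% of the exon length of Daglb, where counting that ignored strand would leave reads unassigned; the setting is not given in the sources used here. In these counts, of 437 genes whose exons lie wholly under exons of opposite-strand genes, 190 had reads, against 1 of 710 genes wholly under exons of same-strand genes, so reads under opposite-strand exons were counted and those under same-strand exons were nearly all left out. Rac1 had 4331, 3859, 3769, 4357 and 3682 reads in the 5 libraries, so its highest count was in replicate 2 at 4 h and its lowest at 8 h. Among Csf1r, Cx3cr1, Tmem119, P2ry12 and C1qa, all markers of microglia, P2ry12 had the lowest mean ratio to the control at 4 h and C1qa the highest. P2ry12 had 31.9 normalized CPM in the control, 29.7 at 1 h, 13.9 and 17.8 in the 4 h pair and 20.8 at 8 h, and C1qa had 23.1, 27.9, 32.4, 29.1 and 28.8 in the same order. Neither was at 0 in a library, and the part of microglia in the Daglb values was not tested.

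Napepld encodes the phospholipase D that releases anandamide and related amides from their membrane precursors. The gene (ENSMUSG00000044968.16, chr5:21662901-21701396, minus strand) had 32.3 normalized CPM in the control, 23.7 at 1 h, 18.6 and 20.5 in replicates 1 and 2 of the 4 h group, and 29.9 at 8 h. The control was the highest library, 1 h lay between it and the 2 libraries at 4 h, and the library at 8 h was within counting error of the control. Relative to the control the ratio was 0.735 (95% counting interval 0.649 to 0.833) at 1 h, 0.578 (0.504 to 0.663) and 0.636 (0.559 to 0.723) in the 4 h pair and, at 8 h, 0.928 (0.826 to 1.04). At 4 h its log2 fold change of -0.72 (SE 0.22) came with an unadjusted p of 0.0191 and an adjusted p of 0.358 (edgeR quasi-likelihood, Benjamini-Hochberg). Of all tested genes, 10.7% had a lower ratio to the control in replicate 1 and 8.94% in replicate 2.

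Faah encodes fatty acid amide hydrolase, the membrane enzyme that ends the action of anandamide. The gene (ENSMUSG00000034171.13, chr4:115967145-116017926, minus strand) had 120 normalized CPM in the control, 113 at 1 h, 57.5 and 69.5 in replicates 1 and 2 of the 4 h group, and 87.9 at 8 h. It was the member with the widest range, with the control 2.08 times replicate 1 at 4 h. The control and 1 h were high, both libraries at 4 h were low without overlap of their counting intervals with any other library, and 8 h lay between.

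Relative to the control, the normalized CPM of Faah was 48.1% in replicate 1 and 58.1% in replicate 2 at 4 h and 73.5% at 8 h. The ratio had a 95% counting interval of 0.446 to 0.518 in replicate 1, 0.543 to 0.622 in replicate 2 and 0.689 to 0.784 at 8 h. The difference from the control was larger than that between the replicates, whose log2 ratio was -0.27. Of all genes, not matched for read count, 51.0% had a smaller or equal gap. At 4 h its log2 fold change of -0.91 (SE 0.19) came with an unadjusted p of 0.00363 and an adjusted p of 0.270 (edgeR quasi-likelihood, Benjamini-Hochberg). Library size alone gave Faah an adjusted p of 0.0456 and no filter on low counts one of 3.20e-04 (edgeR quasi-likelihood, Benjamini-Hochberg). These 2 settings also called more of all genes at 4 h, 237 of 19768 and 1300 of 32732, against 1 in the main analysis. Over all settings with a test the adjusted p of Faah ranged from 3.20e-04 to 1.00 (Benjamini-Hochberg, with edgeR, DESeq2 or limma). Of all tested genes, 6.08% had a lower ratio to the control in replicate 1 and 6.34% in replicate 2. Against 1 h, Faah was lower at 4 h by a log2 fold change of -0.83 (SE 0.19). The adjusted p was 0.489, and 0.00291 without the filter (edgeR quasi-likelihood, Benjamini-Hochberg). Without the filter there were 2120 calls summed over the 3 contrasts between time points, against 1 in the main analysis. The share for 4 h against 1 h alone is not given here.

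Faah and Napepld are both found in principal neurons of the hippocampus. The 6 general neuronal markers, with Map2 the most abundant and none at 0, summed to 5014 normalized CPM in the control, 5255 at 1 h, 5808 and 5124 in the 4 h pair and 4818 at 8 h. Map2 had 1729, 1815, 2465, 2094 and 2033, and the median log2 ratio of the 6 to the control was -0.01 at 1 h, -0.07 and -0.03 in the 4 h pair and -0.31 at 8 h, where the 5 markers other than Map2 were below the control. Single markers of neurons differed in direction at 4 h. Among the marker lists of cell types, edgeR's quasi-likelihood test and limma-voom called 0 genes, and DESeq2 called Prox1 and Neurod6 at 4 h and Gfap at 4 h and 8 h (1.2% of all genes at 4 h and 0.167% at 8 h). Rbfox3, which marks neuronal nuclei, had 119 normalized CPM in the control, 115 at 1 h, 82.0 and 82.4 in the 4 h pair and 93.0 at 8 h. Neurod6, a marker of pyramidal cells, had 144, 145, 60.9, 67.1 and 104, and Prox1, a marker of granule cells, had 60.0, 67.2, 172, 120 and 77.1. These had the lowest and the highest mean ratio of their list at 4 h. In that list the 4 h mean was less far below the control for Wfs1 (82.6 against 84.7), Camk2a (1283 against 1436), Slc17a7 (542 against 640) and Neurod2 (59.9 against 71.0). For Zbtb20 it was above the control (496 against 331). The 7 markers of hippocampal principal neurons, led by Camk2a and none at 0, summed to 2767, 2779, 2691, 2656 and 2772. The median log2 ratio of the 7 to the control was -0.24 and 0.06 in the 4 h pair and -0.10 at 8 h. This sum does not stand for each marker either. The part of these neurons in the Faah and Napepld values was not tested.

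The promoters of Faah and Napepld are shown because these 2 genes were both lower at 4 h, with that of Cnr1 for comparison as the steadiest member. The sequences are from RefSeq (GRCm38.p6), run 5′ to 3′ on the strand of the gene from 250 bases before to 50 after the start annotated in RefSeq, and capitals mark a motif match. The regions are chr4:116017875-116018174 (minus strand) for Faah, chr5:21701573-21701872 (minus strand) for Napepld and chr4:33924394-33924693 (plus strand, the second of 3 entries) for Cnr1. The windows of Faah and Cnr1 span the gene start of GENCODE M21 given above, while that of Napepld lies wholly upstream of it, since the 2 annotations differ there.
Faah: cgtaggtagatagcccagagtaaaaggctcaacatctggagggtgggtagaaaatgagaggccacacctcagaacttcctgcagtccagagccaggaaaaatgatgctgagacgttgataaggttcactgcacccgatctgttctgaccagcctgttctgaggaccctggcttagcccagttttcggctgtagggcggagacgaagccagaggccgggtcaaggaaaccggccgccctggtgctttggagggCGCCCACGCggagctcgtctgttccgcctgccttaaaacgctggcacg
Napepld: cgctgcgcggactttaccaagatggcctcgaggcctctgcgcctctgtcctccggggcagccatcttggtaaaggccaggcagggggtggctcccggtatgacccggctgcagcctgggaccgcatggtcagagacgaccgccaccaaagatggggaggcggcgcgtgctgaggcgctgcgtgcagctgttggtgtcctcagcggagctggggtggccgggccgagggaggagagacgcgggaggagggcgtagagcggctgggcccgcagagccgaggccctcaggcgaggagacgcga
Cnr1: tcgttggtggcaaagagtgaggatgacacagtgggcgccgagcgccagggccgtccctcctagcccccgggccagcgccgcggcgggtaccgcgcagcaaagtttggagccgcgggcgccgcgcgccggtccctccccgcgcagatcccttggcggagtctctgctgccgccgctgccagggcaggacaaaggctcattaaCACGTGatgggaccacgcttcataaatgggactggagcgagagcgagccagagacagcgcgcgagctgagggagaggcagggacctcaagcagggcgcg

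The motifs searched, on both strands, were the cyclic AMP response element TGACGTCA, its shorter core TGACG, which lies within it, the AP-1 motif TGANTCA, the EGR motif GCGNGGGCG and the E-box CACGTG. They occur in 1.79%, 20.8%, 7.81%, 5.55% and 7.15% of the 32851 promoters of the table. The Faah promoter held 1 EGR match, on the opposite strand and 2 bases after the start, and the second Cnr1 promoter held an E-box 49 bases before the start. Both Mgll promoters held an EGR match, the first with an E-box and the second with the core TGACG. No match was found in these windows for Napepld, Daglb, the other 2 Cnr1 entries and the 2 Abhd6 entries. The table has entries for 6 of the 8 genes, not for Dagla and Abhd12. A match describes the letters of the window only. Egr1, an immediate early gene whose protein binds the EGR motif, had 29.1 normalized CPM in the control, 215 at 1 h, 99.1 and 30.9 in the 4 h pair and 19.1 at 8 h.

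**Figure D3:**
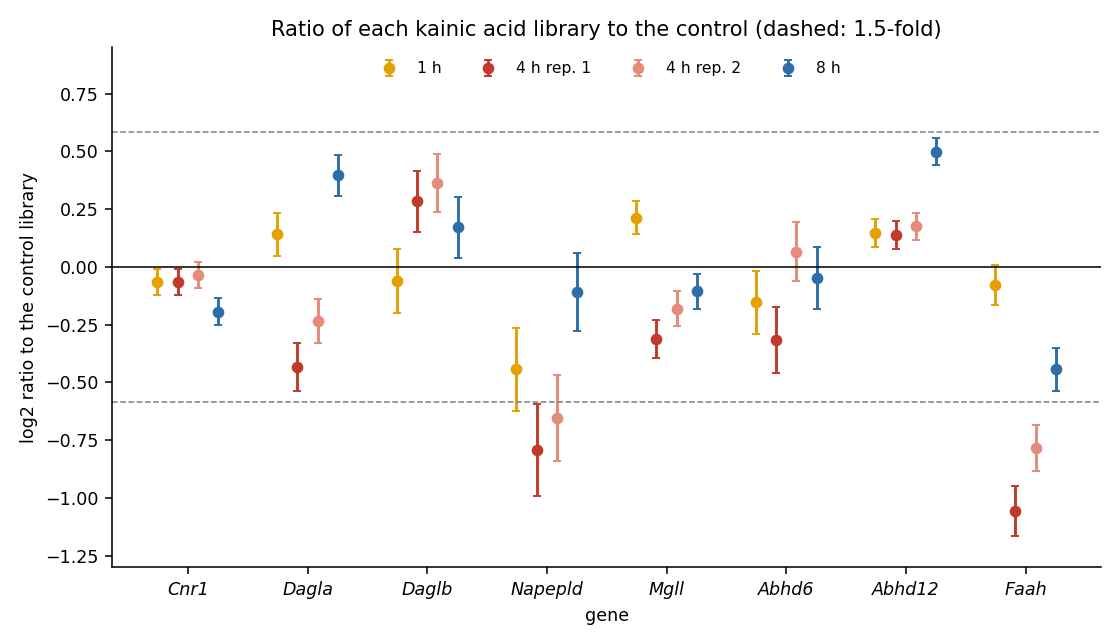
Points are log2 ratios of each kainic acid library to the control, with 95% counting intervals from the exact binomial; dashed lines mark 1.5-fold. At 4 h both replicates lie past the lower line for Faah (-1.06 and -0.78) and Napepld (-0.79 and -0.65), and no point of another gene passes a line in any of the 4 libraries.

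Mgll encodes monoacylglycerol lipase, the presynaptic enzyme that removes most 2-AG in brain. The gene (ENSMUSG00000033174.17, chr6:88724412-88828360, plus strand) had 154 normalized CPM in the control, 178 at 1 h, 124 and 136 in replicates 1 and 2 of the 4 h group, and 143 at 8 h. The library at 1 h was the highest and both libraries at 4 h were the lowest. Relative to the control the ratio was 1.16 (95% counting interval 1.10 to 1.22) at 1 h and 0.805 (0.761 to 0.852) and 0.883 (0.837 to 0.930) at 4 h. Against 1 h, Mgll was lower at 4 h by a log2 fold change of -0.46 (SE 0.16), with an adjusted p of 0.587 (edgeR quasi-likelihood, Benjamini-Hochberg). An antisense gene, Gm26588, covers 3.29% of its exon length and had between 20 and 37 reads, against 2084 to 3132 reads for Mgll.

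Abhd6 encodes a membrane hydrolase that degrades 2-AG on the postsynaptic side. The gene (ENSMUSG00000025277.14, chr14:8002902-8056763, plus strand) had 50.1 normalized CPM in the control, 45.1 at 1 h, 40.2 and 52.5 in replicates 1 and 2 of the 4 h group, and 48.5 at 8 h. Its lowest and its highest library were the 2 replicates at 4 h, which lay on either side of the control. The pair as a whole had a log2 fold change of -0.11 (SE 0.23; adjusted p = 0.875, edgeR quasi-likelihood, Benjamini-Hochberg), and it was 0.066 without replicate 1 and -0.32 without replicate 2. No direction is therefore given for Abhd6 at 4 h.

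Abhd12 encodes a hydrolase that acts on 2-AG and, as its better known substrate, on lysophosphatidylserine. The gene (ENSMUSG00000032046.15, chr2:150832493-150904741, minus strand) had 226 normalized CPM in the control, 250 at 1 h, 249 and 255 in replicates 1 and 2 of the 4 h group, and 319 at 8 h. The control was the lowest library, those at 1 h and 4 h lay close together above it, and 8 h was the highest. At 8 h the library stood at 1.41 times the control (95% counting interval 1.36 to 1.47), and the log2 fold change of 0.50 (SE 0.18) had an unadjusted p of 0.0352 and an adjusted p of 1.00 (edgeR quasi-likelihood, Benjamini-Hochberg). There is no second library at 8 h. Of all tested genes, 16.4% had a higher ratio to the control in that library.

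Astrocytes and oligodendrocytes also carry enzymes of the pathway. The 6 astrocyte markers, with Slc1a2 the most abundant, summed to 3732 normalized CPM in the control, 3921 at 1 h, 4701 and 4309 in the 4 h pair and 4095 at 8 h. Within that list Gfap had 221, 272, 596, 510 and 587, while Gja1 had 195, 175, 194, 202 and 98.6. The 5 oligodendrocyte markers, with Mbp the most abundant, summed to 3104, 3875, 3667, 4724 and 3112, with Mobp at 522, 719, 687, 917 and 735. The 2 markers of oligodendrocyte precursors, with Pdgfra the more abundant, summed to 98.2, 104, 96.6, 119 and 87.6. Pdgfra had 74.8, 79.9, 79.2, 98.7 and 67.0, above the control in both libraries at 4 h. Cspg4 had 23.4, 24.1, 17.4, 19.8 and 20.5, below the control in both. The 4 endothelial markers, with Flt1 the most abundant, summed to 72.7, 73.5, 125, 70.8 and 88.1, and Cdh5 had 5.33, 5.97, 18.1, 7.19 and 7.42, while Cldn5 had 14.1, 10.2, 13.7, 9.94 and 17.6. No marker of these lists was at 0 in a library. Their part in the values of Mgll, Abhd6 and Abhd12 was not tested.

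**Figure D4:**
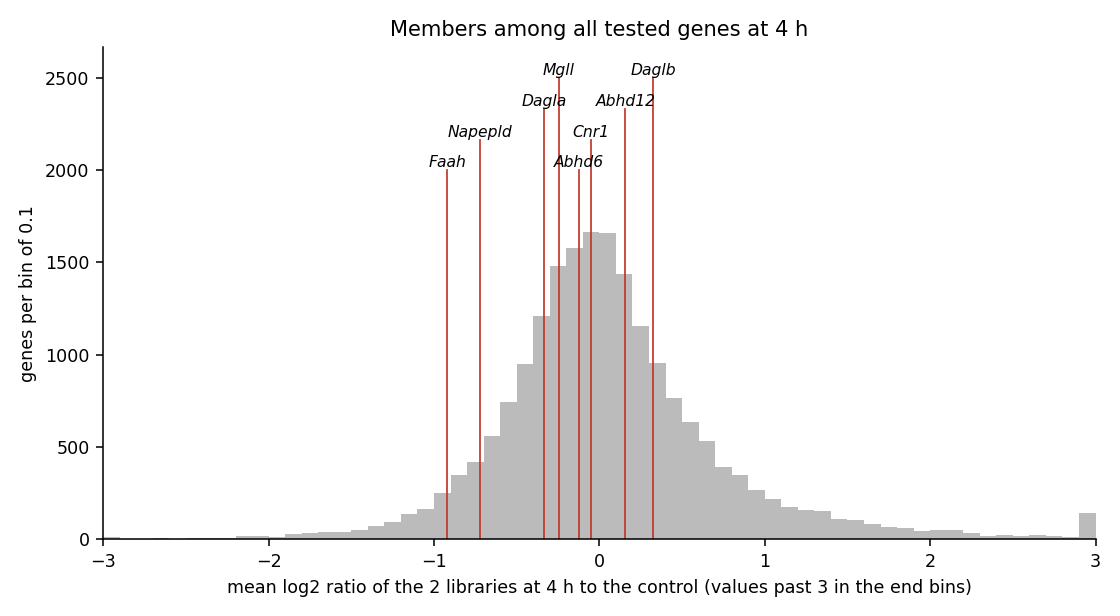
The grey histogram gives the number of tested genes by their mean log2 ratio to the control over the 2 libraries at 4 h, with values past 3 gathered in the end bins, and red lines mark the 8 genes. Faah (-0.92) lies in the lower flank of the distribution, Napepld next to it, and the other 6 genes lie between -0.33 and 0.32.

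To compare levels between genes, normalized CPM was divided by the exon length of GENCODE M21 in kb. That length pools the exons of all annotated transcripts of a gene, so minor transcripts can lengthen it and lower the level given here. Over the 5 libraries, which span 4 conditions, Abhd12 had 92.1 ± 12.4 normalized CPM per kb (mean and SD), Cnr1 40.2 ± 1.99 and Mgll 28.9 ± 4.06. Abhd6 followed with 20.0 ± 2.02, Dagla with 16.9 ± 3.78 and Faah with 11.4 ± 3.43, and Napepld with 6.32 ± 1.49 and Daglb with 5.42 ± 0.676 were the lowest. The ranges of Abhd12, Cnr1 and Mgll did not overlap with each other or with those of the genes after them. The ranges of neighbours from Abhd6 downwards overlapped, while those of Abhd6 and Faah did not. Within each library Dagla was above Faah per exon length (ratio 1.11 in the control to 1.98 at 8 h), and Faah above Napepld. By reads alone Faah was above Dagla in the control (2380 against 1935) and at 1 h (1988 against 1885). The order of Dagla and Faah there came from the lengths used, 5747 bases over 3 transcripts for Dagla and 7834 over 8 for Faah. Dagla stood above Abhd6 at 8 h and below it in the other libraries, and Daglb above Napepld in both libraries at 4 h and below it elsewhere, so the order within these pairs depended on the library.

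**Figure D5:**
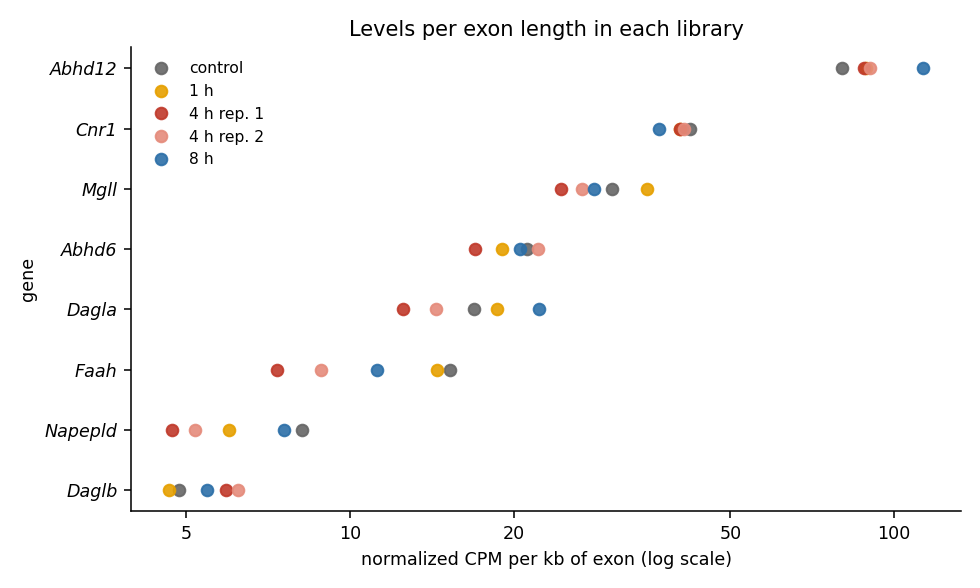
Points are normalized CPM per kb of exon in each of the 5 libraries on a log scale, with genes ordered by their mean. Abhd12 ranges from 80.0 to 113 and Daglb from 4.65 to 6.24, and neighbouring genes from Abhd6 downwards overlap.

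Ratios of members within a library do not depend on how libraries are scaled. Per exon length, Dagla stood to Mgll as 0.559 (95% counting interval 0.528 to 0.592) for the control library, 0.532 at 1 h, 0.514 and 0.538 at 4 h and 0.791 (0.747 to 0.838) at 8 h. The ratio of this 2-AG synthase to the main 2-AG hydrolase thus lay between 0.514 and 0.559 in 4 libraries and was higher in the single library at 8 h. For the anandamide enzymes, Napepld stood to Faah as 0.534 (0.489 to 0.583) for the control library, 0.415 (0.373 to 0.462) at 1 h, 0.642 and 0.585 at 4 h and 0.675 (0.610 to 0.745) at 8 h. This ratio was lowest at 1 h, where Napepld but not Faah was below the control beyond counting error. Among the 3 hydrolases of 2-AG, Mgll made up 23.0% of their summed level per kb in the control, 24.6% at 1 h, 18.8% and 19.2% in the 4 h pair and 17.4% at 8 h, and Abhd12 made up 60.9%, 62.1%, 68.1%, 64.9% and 69.9%.

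The wider pathway was examined with 3 lists. Of 18 genes for other receptors, CB1 partners and lipid carriers, 13 passed the filter, and 0 were called by edgeR's quasi-likelihood test, DESeq2 or limma-voom at 1, 4 or 8 h. At an unadjusted p under 0.05 the counts were 0, 0 and 3 at 1, 4 and 8 h, beside 2.42%, 11.6% and 4.51% of all genes. At least 1.5-fold lower were 1 at 1 h (Fabp7; 9.2% of all genes) and 3 at 8 h (Ppara, Fabp3 and Fabp5; 8.94%), and 0 were that much higher at 1 h, at 8 h or in both libraries at 4 h. Fabp5, a carrier that brings anandamide to its hydrolase, had 64.2 normalized CPM in the control, 61.2 at 1 h, 58.2 and 58.7 in the 4 h pair and 40.1 at 8 h. Gprasp1, the most abundant of the list and a protein that sorts CB1 to lysosomes, had 682, 691, 694, 623 and 468. At 4 h the list reached its highest mean ratio in Fabp7 and its lowest in Ppara, with mean log2 ratios of 0.56 and -0.47. Its median log2 ratio was 0.00 at 1 h, -0.14 and 0.02 in the 4 h pair and -0.28 at 8 h. Cnr2, the CB2 receptor, had between 4 and 9 reads per library and did not pass the filter, and neither did Gpr55, Gpr18, Gpr119 and Trpv1. Gpr119 had 0 reads in each of the 5 libraries, where 3 reads would be between 0.151 and 0.178 normalized CPM.

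The 7 genes that feed 2-AG synthesis, from group I metabotropic receptors to phospholipase C beta, all passed the filter. The edgeR quasi-likelihood test, DESeq2 and limma-voom called 0 of them, and 0, 2 and 1 had an unadjusted p under 0.05 at 1, 4 and 8 h (2.42%, 11.6% and 4.51% of all genes). Plcb4, a phospholipase C, had 39.8 normalized CPM in the control, 48.5 at 1 h, 115 and 62.8 in the 4 h pair and 38.0 at 8 h, the highest mean ratio of the list at 4 h. Gna11, a G protein subunit that couples these receptors to phospholipase C, had 102, 99.4, 71.0, 72.5 and 77.4, the lowest. Grm5, the most abundant of the list and the metabotropic receptor that drives 2-AG release in pyramidal cells, had 466, 472, 400, 422 and 334. The median log2 ratio of the list was 0.01 at 1 h, -0.04 and -0.14 in the 4 h pair and -0.07 at 8 h.

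Of 15 genes for other routes of synthesis, hydrolysis and oxidation, 12 passed the filter, without Ptpn22, Alox12 and Alox15. The edgeR quasi-likelihood test and limma-voom called 0 and DESeq2 called 1, Ptgs2 at 4 h (1.2% of all genes), while 1, 1 and 0 had an unadjusted p under 0.05 in edgeR at 1, 4 and 8 h (2.42%, 11.6% and 4.51%). Ptgs2 was at least 1.5-fold higher at each time (10.9%, 10.1% and 14.1% of all genes at 1, 4 and 8 h), and at least 1.5-fold lower were 1 at 1 h (Gdpd3, 15 reads in the control and 8 at 1 h; 9.2%), 0 at 4 h (6.28%) and 1 at 8 h (Pla2g4e, 47 and 23 reads; 8.94%). Ptgs2, cyclooxygenase-2, which oxidizes both arachidonic acid and 2-AG, had 23.2 normalized CPM in the control, 443 at 1 h, 672 and 244 in the 4 h pair and 58.6 at 8 h. Its log2 fold change at 4 h was 4.30 (SE 0.71), with an unadjusted p of 0.00130 and an adjusted p of 0.245 (edgeR quasi-likelihood, Benjamini-Hochberg). Among the other members of that list Ddhd2 was the lowest at 4 h (mean log2 ratio -0.31), and the list median was 0.06 at 1 h, 0.03 and 0.10 in the 4 h pair and 0.03 at 8 h.

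Of the 7 immediate early genes, all 7 were at least 1.5-fold higher at 1 h (10.9% of all genes), 3 in both libraries at 4 h (Fos, Fosb and Arc; 10.1%) and 2 at 8 h (Fos and Fosb; 14.1%), while 2 were at least 1.5-fold lower at 8 h (Egr1 and Nr4a1; 8.94%). In edgeR 7, 3 and 0 of them had an unadjusted p under 0.05 at 1, 4 and 8 h, beside 2.42%, 11.6% and 4.51% of all genes. The edgeR quasi-likelihood test and limma-voom called 0 of them. DESeq2 called 1 at 1 h (0.283% of all genes) and 1 at 4 h (1.2%), Fosb at both times. Fosb had 3.52 normalized CPM in the control, 372 at 1 h, 238 and 60.2 in the 4 h pair and 9.75 at 8 h. The 2 libraries at 4 h thus differed in these genes far more than in Faah (57.5 and 69.5) or Napepld (18.6 and 20.5).

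Among 12794 tested genes with an SD of log2 normalized CPM of at least 0.2, Gba2, Fam171a2 and Mfsd13b followed Faah most closely, with Pearson correlations of 1.00, 0.999 and 0.999 over the 5 libraries. Gba2, a glucosylceramidase, had 68.2 normalized CPM in the control, 66.2 at 1 h, 48.2 and 52.7 in the 4 h pair and 58.9 at 8 h. With so few libraries high values are common, and 430 genes (3.36%) correlated with Faah above 0.95. Atxn7l2, Gm16150 and Disp1 were closest to Napepld (0.999, 0.999 and 0.997), where 244 genes (1.91%) exceeded 0.95. Mfsd13b (3 to 21 reads per library) and Gm16150 (1 to 13 reads) had low counts, and their correlations rest on few reads. Atxn7l2 had 16.4, 11.0, 8.49, 9.47 and 14.9 normalized CPM in the order of the libraries, high in the control and at 8 h and low at 4 h as Napepld was.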

How the data were processed

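The authors prepared stranded total RNA libraries of hippocampus and deposited a raw read count per gene for each of 5 libraries. The submitters' processing notes name STAR 2.5.1b, HTSeq and GRCm38.p4; the strand setting and annotation used are unstated ("not given in the sources used here"). In all, 55144 of 55385 gene identifiers were found in GENCODE M21, which gave positions and exon lengths. Reads on no gene made up 24.7% to 33.1% of a library and were left out. In R 4.3.3, edgeR 4.0.16 filtered genes (filterByExpr), normalized by TMM and fitted a quasi-likelihood model with 4 groups, 1 residual degree of freedom and a prior count of 2; p values were adjusted by Benjamini-Hochberg over 19768 genes, and the scripts were tested on simulated data, where the quasi-likelihood test and limma-voom made a larger share of false calls than the adjusted threshold allows. Standard errors are the unshrunk coefficient over the root of F. Groups of 1 library were assumed to vary like the pair at 4 h. Intervals (exact Poisson, exact binomial, 95%) cover counting error only. Correlations used log2 (normalized CPM + 0.5). Alternatives were RLE factors, library size alone, DESeq2 1.42.0, limma-voom (limma 3.58.1), no filter, at least 10 counts in every library, assumed biological coefficients of variation of 0.2 and 0.4, a smaller prior count and leaving out each library at 4 h. Named genes were the 8 members, the genes of the lists with the highest and lowest mean ratio at 4 h, others of the lists as summaries, and the 3 genes most correlated with the 2 most variable members. The members and lists were chosen with earlier results of these data known. Plots used matplotlib 3.10.9 under Python 3.11.15. The summed level of the microglial markers is not reported here.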

Additional observations from a re-analysis of the deposited data

Results flagged for a closer look

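Reads that were aligned but lay on no annotated gene are outside the counts per gene, and their share was higher in each of the 4 kainic acid libraries than in the control, where it was 24.7%. It was 29.0% at 1 h, 33.1% in replicate 1 and 25.3% in replicate 2 at 4 h, and 30.9% at 8 h. These reads were not analysed further here, and their part in the values of the 8 genes was not tested.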

How the results depend on the processing

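The 8 genes and 3 comparisons with the control gave 216 log2 fold changes with a test under alternative settings, of which 214 kept both their direction and their side of the threshold. Faah at 4 h passed it with library size alone (-1.03, adjusted p = 0.0456) and without a filter (-0.93, adjusted p = 3.20e-04; edgeR, Benjamini-Hochberg). Abhd6 at 4 h was -0.11 and ranged from -0.32 to 0.066 when either replicate was left out, so that its sign turned without replicate 1; the other 15 of 16 values at 4 h with a replicate left out kept their direction. Members called at 4 h numbered 0 in the main analysis, and 1 (Faah) with library size alone and without a filter. Beside this, 237 of 19768 genes were called with library size alone and 1300 of 32732 without a filter, against 1 in the main analysis. Members called between time points numbered 2 without a filter (Faah for 4 h against 1 h, Dagla for 8 h against 4 h) and 0 otherwise. Over all genes, calls summed over the 3 contrasts between time points numbered 2120 without a filter and 1 in the main analysis. Members past 1.5-fold at 4 h numbered 2 under each scaling and without either replicate.

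Counts over all genes depended strongly on the setting. At 1 h, where the main count was 0, they were 57 with library size alone, 56 with DESeq2, 285 without a filter, 1 with at least 10 counts in every library, and 238 and 40 with assumed coefficients of variation of 0.2 and 0.4. At 4 h, where it was 1, they were 237, 238, 1300, 0, 916 and 81 in the same order, and 0 with RLE factors and limma-voom. At 8 h, where it was 0, they were 22 with library size alone, 33 with DESeq2, 279 without a filter, and 184 and 12 with the assumed coefficients. Between time points, calls were summed over the 3 contrasts. The main count there was 1, and the others were 278, 307, 2120, 0, 1531 and 129 in the order given for 1 h, and 0 with RLE factors and limma-voom. The cause was not tested.

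Library size alone moved the median log2 ratio of all genes to -0.18 in replicate 1 and -0.07 in replicate 2 at 4 h, and the log2 ratios of the members by -0.18 and -0.07; the value of Faah under that setting (-1.03 against -0.91) includes both shifts. Leaving out a replicate leaves no residual degree of freedom, and those values have no test. No paired analysis was possible because replicate numbers mark libraries within a group, and the labels give no pairing between groups. Having 1 library each for the control, 1 h and 8 h limits what any setting can show.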

Other observations

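The 2 diacylglycerol lipases differed from the control in opposite directions at 4 h, Dagla lower and Daglb higher in both libraries and under each scaling, which brought their levels closer. Per exon length, Dagla stood to Daglb as 3.49 in the control, 4.01 at 1 h, 2.12 and 2.30 in replicates 1 and 2 of the 4 h group, and 4.07 at 8 h. Both libraries at 4 h were below the other 3, and the ratio is free of library scaling. Cnr1 stood to Mgll as 1.39 in the control, 1.15 at 1 h, 1.66 and 1.54 in the 4 h pair and 1.31 at 8 h, so this ratio was lowest at 1 h and highest at 4 h. These ratios were computed after the values of the genes had been seen and were not tested.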
